A study of Homo sapiens with 12 samples.

Results

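The 10 genes described here encode NF-κB and proteins that regulate it: the subunit genes NFKB1, NFKB2, RELA, RELB and REL, the inhibitor and feedback genes NFKBIA, NFKBIE, TNFAIP3 and BIRC3, and MAP3K14, the kinase gene of the non-canonical branch. They were taken by gene symbol from the 59276 features of the deposited table, and each symbol was found once. Earlier results of these data were known when the genes were chosen. RNA-seq of total RNA was made from MM1S, an established human multiple myeloma line, in 12 libraries. There were 3 libraries of cells at day 0 and 3 libraries each after 2, 3 and 5 days of NGI-1 at 10 μM, a small molecule that inhibits the oligosaccharyltransferase (OST) complex, which attaches N-glycans to proteins in the ER. The labels list NGI-1 as the treatment of the day 0 libraries as well, and these are called untreated here because the paper does so. No untreated cells of a later day were analysed, so time in culture and treatment cannot be told apart. The labels do not say whether libraries of a group came from separate cultures, and p-values then measure only the spread between these libraries, which may be technical.

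NF-κB is a dimeric transcription factor. In the canonical branch, IκB proteins keep dimers of RELA or REL with p50, the product of NFKB1, in the cytoplasm until the IKK complex marks the inhibitor for destruction. In the non-canonical branch, the kinase NIK, encoded by MAP3K14, drives the processing of the NFKB2 product p100 to p52, which pairs with RELB. Several of these genes, among them NFKBIA, NFKB2, RELB, TNFAIP3 and BIRC3, are themselves classical NF-κB targets, and mutations that activate either branch recur in multiple myeloma. In the RefSeq table for GRCh38.p14, the subunit genes lie at chr4:102501359-102617302 (NFKB1), chr10:102394110-102402529 (NFKB2), chr11:65653601-65663857 (RELA), chr19:45001464-45038192 (RELB) and chr2:60881574-60931612 (REL). The regulators lie at chr14:35401513-35404749 (NFKBIA), chr6:44258166-44265551 (NFKBIE), chr6:137866349-137883312 (TNFAIP3), chr11:102317484-102339403 (BIRC3) and chr17:45263119-45317020 (MAP3K14).

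Values are TPM, a length-corrected share of the transcripts in a library, and every change is a difference of log2(TPM + 1), which understates the change of low genes. A gene was called higher or lower at a Benjamini-Hochberg adjusted p under 0.05 over 11939 tested features and a log2 change over 0.5 in size, by limma in 1 fit of all 4 groups. Because TPM is a share, the rest of the library matters. Ribosomal protein features took 28.5% to 29.6% of TPM in untreated libraries and 47.8% to 49.4% at day 5, and mitochondrial features took 9.33% to 10.7% and 13.4% to 14.7%. The part of this shift in the changes of single genes was not tested, and in bulk RNA fewer cells of a kind and less RNA per cell cannot be told apart. The median log2 change of all tested features was -0.18 at day 2, -0.73 at day 3 and -0.99 at day 5. Each result is therefore also given after rescaling, in which every library was divided by the factor that centres 5433 features averaging a TPM of 10 or more, and the medians became 0.06, 0.01 and 0.03. Day 3 replicate 2 and day 5 replicate 3 stood apart on the first principal component, at 29.3 against 48.6 and 50.6, and at 56.4 against 77.5 and 85.7. Each of them held the highest value of its group for 8 of the 10 genes, as it did for 64.2% and 71.1% of all tested features. All 10 plasma cell markers were detected, with a summed TPM of 12006 or more, most of it JCHAIN. At day 5, 2 of them were called higher and 6 lower, against 7.73% and 69.8% of all tested features. After rescaling these counts were 4 and 1, against 29.4% and 24.7%. All 5 myeloid and all 5 stromal markers stayed under a TPM of 1. Of the B and T cell markers only FCER2 and CD3E reached that level. FCER2 had a mean TPM of 0.143 in untreated cells, then 2.67, 2.02 and 1.03, and was called higher on each day on both scales. It passed the filter on low values only through treated libraries, where it is high, so a difference was built into its being tested. CD3E had 3.0, then 6.33, 5.79 and 4.01, and was called higher at day 2 and day 3, and on each day after rescaling. Their part in the results was not tested.

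All 10 genes passed the filter on low values. MAP3K14 passed it only through the untreated and day 2 libraries, where it is high, and NFKBIE through those and 1 day 5 library. At day 2, 3 genes were called higher, against 8.03% of all tested features, and 0 were called lower, against 23.2%, by limma. At an unadjusted p under 0.05 these counts were 6 and 0. At day 3, 2 genes were called higher and 4 lower, against 7.59% and 61.5% of all features. At day 5, the counts were 2 higher and 5 lower, against 7.73% and 69.8%. Without MAP3K14 the genes called lower were 3 of 9 at day 3 and 4 of 9 at day 5. After rescaling, 6 were called higher and 0 lower at day 2 (15.4% and 9.44% of all features), 5 and 0 at day 3 (25.4% and 22.6%) and 5 and 1 at day 5 (29.4% and 24.7%). At day 3 the rescaled counts at an unadjusted p under 0.05 were 5 higher and 3 lower. The median log2 change of the 10 genes was 0.45, -0.27 and -0.51 at the 3 days on the deposited scale, each above the median of all features, and 0.63, 0.45 and 0.47 after rescaling. Without MAP3K14 and NFKBIE these medians were 0.47, -0.07 and -0.24, and 0.70, 0.70 and 0.85. The 3 comparisons share their untreated libraries.

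At day 2, all 3 libraries lay above all untreated ones for 6 of the 10 genes and below them for 0, against 16.9% and 44.1% of all features. The counts were 3 above and 5 below at day 3 (11.1% and 70.5%), and 2 and 6 at day 5 (10% and 75.2%). After rescaling they were 7 and 0 at day 2 (32.3% and 24.8%), 6 and 3 at day 3 (36.0% and 35.1%), and 6 and 3 at day 5 (37.5% and 34.5%). With ribosomal protein and mitochondrial features removed before TPM was formed, limma called 6 genes higher and 0 lower at day 2 (12.5% and 16% of features), 3 and 3 at day 3 (15.1% and 43.4%), and 4 and 3 at day 5 (16.9% and 48.1%). On these values 1 gene was called higher and 4 lower from day 2 to day 3 (7.89% and 37.0%), 1 and 0 from day 3 to day 5 (2.34% and 3.92%), and 0 and 5 from day 2 to day 5 (10.8% and 45.9%).

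**Figure D1:**
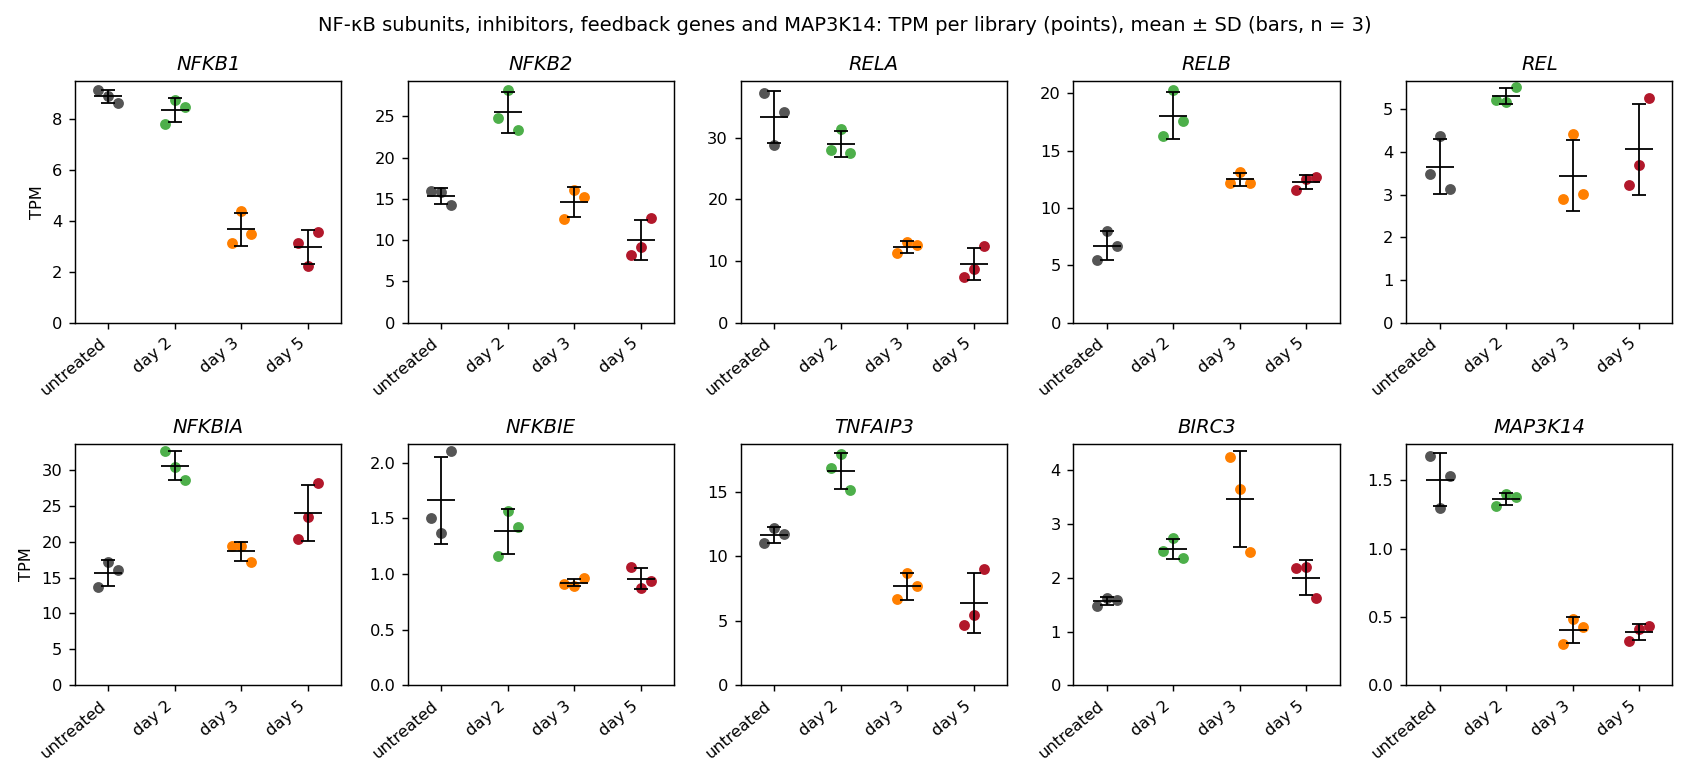
TPM (y axis, from 0) of each gene in the 12 libraries, by day of NGI-1 (x axis). Points are libraries and bars the mean ± SD (n = 3). NFKB2, RELB, REL, NFKBIA, TNFAIP3 and BIRC3 lay above all untreated libraries at day 2. RELA, NFKB1, MAP3K14, TNFAIP3 and NFKBIE lay below them at day 3 and day 5, and NFKB2 at day 5.

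RELB, the partner of p52, was the subunit gene with the largest rise. Its TPM was 5.49, 7.99 and 6.69 in the untreated libraries, 16.3, 20.3 and 17.6 at day 2, 12.1, 13.2 and 12.2 at day 3, then 11.6, 12.5 and 12.7 at day 5. All 9 treated libraries were above all untreated ones. The log2 change was 1.31 ± 0.13 (SE), 0.82 ± 0.13 and 0.79 ± 0.13 on days 2, 3 and 5 (adjusted p = 3.2e-06, 5.06e-05 and 5.15e-05, limma). After rescaling it was 1.54, 1.63 and 1.96, called higher each time.

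NFKB2, which encodes p100 and p52, rose and came back. Its TPM was 16, 15.8 and 14.3 in untreated libraries and 24.8, 28.2 and 23.3 at day 2, without overlap. It was 12.6, 16 and 15.2 at day 3, then 8.19, 9.12 and 12.7 at day 5, the last 3 all below the untreated libraries. The log2 change was 0.69 ± 0.15 at day 2 (adjusted p = 0.00189, limma), -0.07 ± 0.15 at day 3 (adjusted p = 0.667) and -0.59 ± 0.15 at day 5 (adjusted p = 0.00188). The late direction depended on the scale: after rescaling NFKB2 was called higher on all 3 days, by 0.96, 0.78 and 0.61, and without ribosomal protein and mitochondrial features its day 5 change was 0.08 and not called. Without day 5 replicate 1 the deposited day 5 change was -0.47 and not called.

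RELA, which encodes the main transactivating subunit p65, was the most abundant of the 10 in untreated cells. Its TPM was 37.2, 28.7 and 34.1 there, 28, 31.3 and 27.5 at day 2, 11.2, 13.2 and 12.5 at day 3, then 7.34, 8.68 and 12.4 at day 5. Day 2 overlapped the untreated libraries, and both later days lay wholly below them. The log2 change was -0.19 ± 0.16 at day 2 (adjusted p = 0.332, limma), -1.36 ± 0.16 at day 3 (adjusted p = 2.59e-06) and -1.74 ± 0.16 at day 5 (adjusted p = 1.44e-07). After rescaling the changes were -0.49 at day 3, short of the threshold of 0.5, and -0.52 at day 5, the only gene of the 10 called lower on that scale against untreated cells. Without ribosomal protein and mitochondrial features RELA was called lower at day 3 and day 5, by -0.93 and -1.09.

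NFKB1, which encodes p105 and p50, was called lower on the same days as RELA. Its TPM was 9.14, 8.90 and 8.64 in untreated libraries, 7.82, 8.73 and 8.47 at day 2, 3.12, 4.40 and 3.48 at day 3, then 3.11, 2.24 and 3.57 at day 5. No library of day 3 or day 5 reached the lowest untreated value. The change was -0.08 ± 0.14 at day 2 (adjusted p = 0.663, limma), -1.09 ± 0.14 at day 3 (adjusted p = 1.02e-05) and -1.33 ± 0.14 at day 5 (adjusted p = 1e-06). Rescaled changes of 0.18, -0.32 and -0.26 were not called. Without ribosomal protein and mitochondrial features NFKB1 was called lower at day 3 and day 5, by -0.75 and -0.81.

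REL, the subunit prominent in lymphoid cells, was called on no day on the deposited scale. Its TPM was 3.48, 4.37 and 3.13 in untreated libraries, 5.22, 5.18 and 5.52 at day 2, 2.91, 4.42 and 3.03 at day 3, then 3.23, 3.70 and 5.26 at day 5. Only the day 2 libraries were clear of the untreated ones. The day 2 change of 0.44 ± 0.17 had an adjusted p of 0.0491 by limma and fell short of the size threshold, and the changes of -0.07 and 0.11 at the later days were not called. After rescaling REL was called higher at each day, by 0.65, 0.63 and 1.15.

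NFKBIA encodes IκBα, the inhibitor that NF-κB induces and that in turn retains RELA dimers in the cytoplasm. Its TPM was 13.7, 17.1 and 16.1 in untreated libraries, 32.7, 30.4 and 28.6 at day 2, 19.3, 19.4 and 17.2 at day 3, then 20.3, 23.5 and 28.2 at day 5. Every treated library lay above every untreated one, by a narrow margin at day 3. The log2 change at day 3 was 0.24 ± 0.13 (adjusted p = 0.0891, limma), between called rises of 0.93 and 0.58 at day 2 and day 5. The day 5 rise was 0.46 without day 5 replicate 3 and 0.49 without untreated replicate 1, in both cases below the size threshold. After rescaling the rises were 1.19, 1.10 and 1.81, all called.

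TNFAIP3 encodes A20, the ubiquitin-editing enzyme that ends canonical signalling. Its TPM was 11, 12.2 and 11.7 in untreated libraries, 16.9, 17.9 and 15.2 at day 2, 6.66, 8.74 and 7.69 at day 3, then 4.65, 5.48 and 9.0 at day 5. No treated group overlapped the untreated one: day 2 was above it, and day 3 and day 5 were below. Day 3 and day 5 overlapped each other. The change of 0.48 ± 0.18 at day 2 was not called (adjusted p = 0.0415, limma), and the falls were -0.55 ± 0.18 at day 3 (adjusted p = 0.0117) and -0.82 ± 0.18 at day 5 (adjusted p = 0.000634). The fall at day 3 was -0.46 and not called without day 3 replicate 1. On the rescaled values the direction of the later days turned, with 0.74 called at day 2 and uncalled changes of 0.28 and 0.33 at day 3 and day 5.

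BIRC3 encodes cIAP2, a ubiquitin ligase of receptor complexes and of NIK turnover. Its TPM was 1.47, 1.62 and 1.59 in untreated libraries, 2.50, 2.73 and 2.37 at day 2, 4.23, 3.64 and 2.48 at day 3, then 2.18, 2.19 and 1.62 at day 5. Day 3 had the highest mean, 3.45 ± 0.891 (SD, n = 3), and the widest spread. The change was 0.46 ± 0.15 at day 2 (adjusted p = 0.0241, limma), under the size threshold (0.66 and called with a pseudocount of 0.1), 0.78 ± 0.15 at day 3 (adjusted p = 0.000347), which was called, and 0.22 ± 0.15 at day 5 (adjusted p = 0.186). Rescaled rises of 0.60, 1.39 and 1.08 were all called.

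NFKBIE, which encodes the inhibitor IκBε, was close to the limit of the filter. Its TPM was 1.51, 1.37 and 2.11 in untreated libraries, 1.16, 1.56 and 1.42 at day 2, 0.914, 0.897 and 0.961 at day 3, then 1.06, 0.877 and 0.940 at day 5. The later days lay below the untreated libraries, and the changes of -0.46 and -0.43 had adjusted p of 0.00554 and 0.00703 by limma but missed the size threshold. With a pseudocount of 0.1 in place of 1 they were -0.76 and -0.71 and were called. After rescaling they were 0.05 and 0.30 and not called.

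MAP3K14, the gene of NIK, had the lowest mean TPM of the 10 in every group, overlapping the next gene in untreated cells and at day 2. It was called lower at day 3 and day 5. Its TPM was 1.68, 1.30 and 1.53 in untreated libraries, 1.31, 1.40 and 1.37 at day 2, 0.300, 0.483 and 0.429 at day 3, then 0.325, 0.412 and 0.437 at day 5. The later days lay far below the others, with mean TPM ratios to untreated cells of 0.269 and 0.260. The log2 change was -0.83 ± 0.12 and -0.85 ± 0.12 on the later days (adjusted p = 1.57e-05 and 9.95e-06, limma), and -1.68 and -1.71 with the pseudocount of 0.1. Since the filter was passed through the groups where the gene is high, the test was also made with no filter, and both falls were called there too (adjusted p = 4.53e-05 and 2.65e-05, limma). Rescaled changes of -0.43 and -0.30 were below the size threshold. Without ribosomal protein and mitochondrial features they were -0.85 and -0.75, both called lower. An antisense gene, MAP3K14-AS1, overlaps MAP3K14 and had a TPM of 0.208 to 1.63. RELA, REL and TNFAIP3 also overlap another annotated gene each. Whether reads were counted by strand is not given in the sources used here, so reads of such pairs may be shared.

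**Figure D2:**
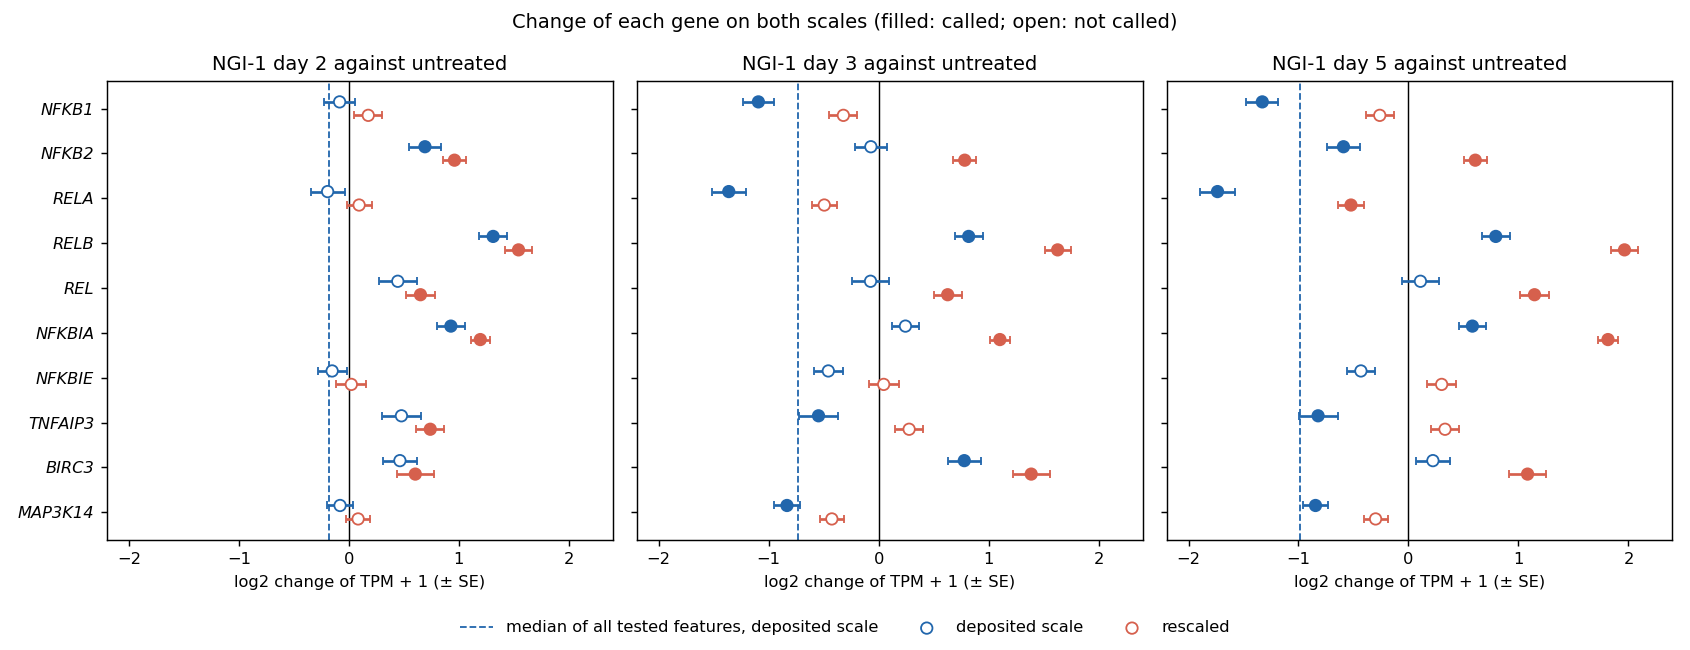
Log2 change of TPM + 1 against untreated cells (x axis, ± SE) for each gene (y axis) at day 2, day 3 and day 5. Blue is the deposited scale and red the rescaled values, filled points were called, and the dashed line is the median of all tested features on the deposited scale, which lay at -0.18, -0.73 and -0.99. RELB was called higher in all 6 cases, and NFKB2, NFKBIE and TNFAIP3 changed sign between the scales at day 5.

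A ratio of 2 genes within a library does not depend on how libraries are scaled. RELB stood at 0.147, 0.278 and 0.196 of RELA in the untreated libraries, 0.581, 0.649 and 0.641 at day 2, 1.08, 1.0 and 0.973 at day 3, then 1.58, 1.44 and 1.03 at day 5. The RELB to RELA ratio was thus below 1 in all untreated and day 2 libraries and above 1 in all day 5 libraries. The 9 treated libraries exceeded the 3 untreated by 2.24 on the log2 scale (exact two-sided permutation p = 0.00455, the smallest that 220 arrangements allow, adjusted p = 0.00758 over 5 ratios). NFKBIA to RELA went from 0.367, 0.595 and 0.472 in untreated libraries to 1.17, 0.970 and 1.04 at day 2, 1.72, 1.48 and 1.37 at day 3, then 2.77, 2.70 and 2.28 at day 5. Its treated libraries were higher by 1.77 on the log2 scale, with the same exact permutation p of 0.00455 and adjusted p of 0.00758. Both ratios share RELA, which lay below the untreated libraries at day 3 and day 5. RELB and NFKBIA lay above them on every day, so these p-values add no support beyond the changes of the single genes.

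NFKB2 to NFKB1 was 1.75, 1.77 and 1.65 in untreated libraries, 3.18, 3.24 and 2.75 at day 2, 4.04, 3.65 and 4.38 at day 3, then 2.63, 4.06 and 3.56 at day 5. Every treated library was above every untreated one, by 1.001 on the log2 scale on average (exact two-sided permutation p = 0.00455, adjusted p = 0.00758). BIRC3 to BIRC2, its close relative, was 0.0807 of BIRC2 in untreated cells and 0.0985, 0.136 and 0.0885 at the 3 days as geometric means. The difference of 0.39 had an exact two-sided permutation p of 0.0955 (adjusted p = 0.119), and was 0.46 with p = 0.0485 by the same exact test without day 5 replicate 3. MAP3K14 to TRAF3 differed by -0.16 (exact permutation p = 0.609), with treated libraries between 0.0888 and 0.257 around the untreated 0.177 to 0.204. An exact permutation test of a single day against untreated, 3 libraries against 3, cannot go below p = 0.10 and was not made. The pairs were chosen with earlier results of these data known, so the p-values of all the ratios describe these libraries and are no independent support.

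**Figure D3:**
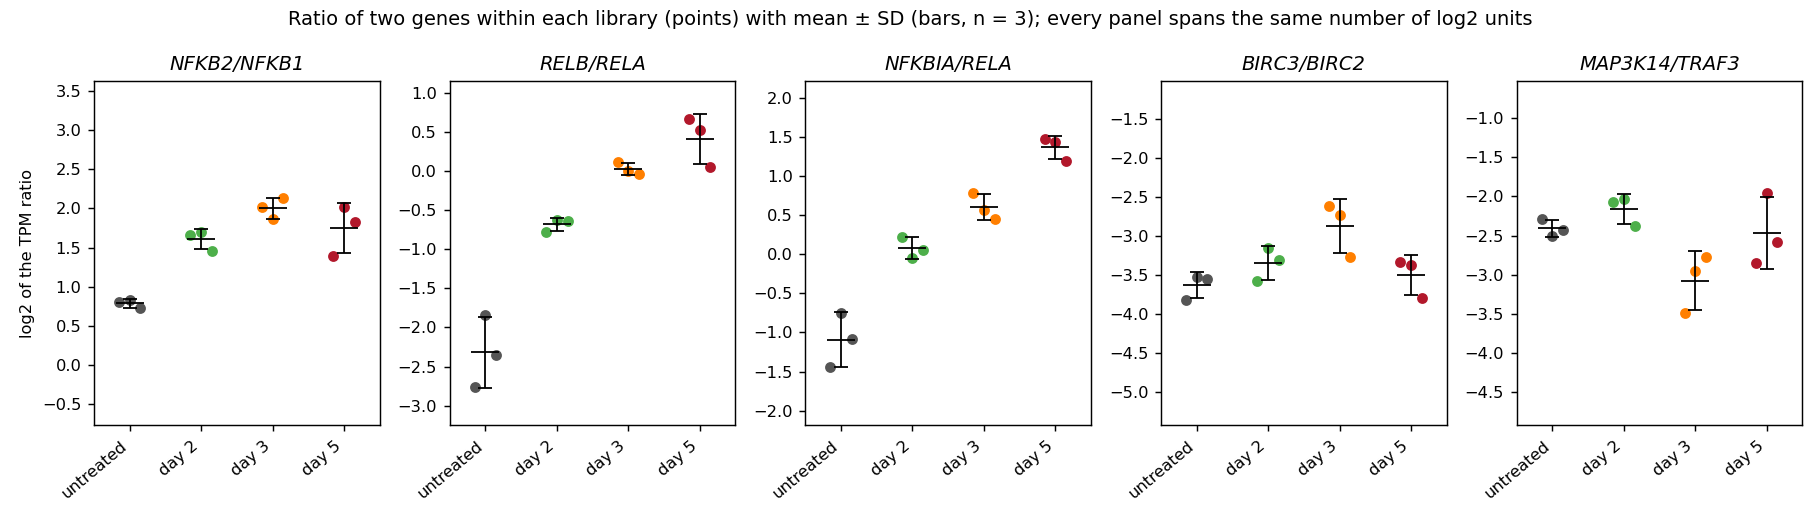
Log2 of the TPM ratio of 2 genes within each library (y axis) by day of NGI-1 (x axis). Points are libraries and bars the mean ± SD (n = 3), and all panels span the same number of log2 units. RELB to RELA and NFKBIA to RELA rose above all untreated libraries at day 2 and were highest on average at day 5, while MAP3K14 to TRAF3 overlapped the untreated libraries.

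Between the treated days most genes fell on the deposited scale. From day 2 to day 3, 7 of the 10 were called lower, against 55.5% of all tested features, and 0 higher, against 3.22%; limma gave 0 higher at an unadjusted p under 0.05 as well. These were NFKB1, NFKB2, RELA, REL, NFKBIA, TNFAIP3 and MAP3K14. After rescaling, 2 were called lower (14.8% of all features), RELA by -0.59 and MAP3K14 by -0.51, and BIRC3 was called higher by 0.78 (14.1%). From day 3 to day 5, NFKB2 and BIRC3 were called lower, by -0.52 and -0.56, against 13.1% of all features, with 0 called higher against 0.67%, and 1 higher at an unadjusted p under 0.05 by limma. This count of 2 was 0 without day 3 replicate 2, 3 without day 5 replicate 3, and 1 without any single one of the other 4 libraries of these days. After rescaling no gene was called lower from day 3 to day 5, where 1.92% of all features were, and REL and NFKBIA were called higher by 0.52 and 0.71, against 4.82%. Over the whole interval from day 2 to day 5, limma called 6 lower against 69.8% of all features and 0 higher against 4.35%, with 0 higher at an unadjusted p under 0.05 too, and after rescaling 1 was called lower, RELA, against 18.4% and 1 higher, NFKBIA, against 19.3%.

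The order of the genes by TPM changed as well. Untreated cells held most RELA, with a mean of 33.4 ± 4.28 (SD, n = 3), followed by NFKBIA at 15.6 ± 1.77 and NFKB2 at 15.4 ± 0.943, which overlapped each other. TNFAIP3 at 11.7 ± 0.614, NFKB1 at 8.89 ± 0.252, RELB at 6.72 ± 1.25 and REL at 3.66 ± 0.640 followed without overlap, and NFKBIE, BIRC3 and MAP3K14 lay together at 1.5 to 1.66. At day 5, NFKBIA was first with 24.0 ± 3.95 (SD, n = 3), clear of all others. RELB at 12.3 ± 0.602, NFKB2 at 10.01 ± 2.38 and RELA at 9.46 ± 2.59 came next and overlapped their neighbours. BIRC3 at 2.00 ± 0.328, NFKBIE at 0.959 ± 0.0939 and MAP3K14 at 0.391 ± 0.0589 closed the list without overlap.

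The promoters of these genes were read for the κB consensus, the GGGRNNYYCC motif of NF-κB binding, on both strands of RefSeq windows from 250 bases before to 50 bases after the start site (GRCh38.p14). Of the 10 genes, 8 had a window and 6 of these held a match, against 13.3% of 27305 genes. The matches of these 6 are shown because the genes moved in both directions, NFKB1 downward on the deposited scale and BIRC3 and NFKBIA upward. Capitals mark the matching bases, and each line reads 5′ to 3′ on the gene's strand.
NFKBIA, chr14:35404811-35404840, minus strand: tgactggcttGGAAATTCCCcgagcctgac
NFKB2, chr10:102394462-102394490, plus strand: aaacgtcatGGGAATTCCCCcctccgggg
NFKB2, chr10:102395674-102395703, plus strand: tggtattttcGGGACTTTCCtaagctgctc
BIRC3, chr11:102317275-102317304, plus strand: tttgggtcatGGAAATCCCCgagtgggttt
BIRC3, chr11:102317339-102317368, plus strand: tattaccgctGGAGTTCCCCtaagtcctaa
TNFAIP3, chr6:137867188-137867217, plus strand: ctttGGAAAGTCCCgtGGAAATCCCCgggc
REL, chr2:60881518-60881546, plus strand: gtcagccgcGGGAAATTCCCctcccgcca
NFKB1, chr4:102501300-102501329, plus strand: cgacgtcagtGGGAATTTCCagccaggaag

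The NFKBIA match began 81 bases before the start site, that of NFKB1 49, that of REL 47, and the BIRC3 matches 199 and 135. The TNFAIP3 window holds 2 matches, the first 67 bases before the start site. NFKB2 had 3 further matches at 2 other sites, not printed here. RELA and MAP3K14 had a window without a match, and RELB and NFKBIE had no window in the table. A match of letters describes the sequence and does not show binding.

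The partners that destroy NIK moved apart. TRAF2 was called lower at each day, by -0.72, -1.54 and -1.997, with TPM of 9.33 to 9.96 in untreated libraries and 1.41 to 2.09 at day 5. TRAF3, the adaptor that brings NIK to the complex, was called lower at day 3 and day 5, by -1.04 and -1.5 (adjusted p = 2.06e-05 and 3.9e-07, limma). BIRC2, which encodes cIAP1, had changes of 0.39, 0.34 and 0.20 on the deposited scale, not called, and rescaled rises of 0.67, 1.21 and 1.44 that were called. TRAF2 was also called lower after rescaling at day 3 and day 5, by -0.79 and -1.01, while TRAF3 at -0.28 and -0.48 was not.

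The IKK complex, which phosphorylates the IκB proteins, followed the bulk of the features. CHUK (IKKα), IKBKB (IKKβ) and IKBKG (NEMO) were called lower at day 5 by -1.05, -1.10 and -1.14, and after rescaling their changes were 0.15, 0.04 and 0.04, not called. IKBKE, a related kinase, fell by -1.16 at day 5. Of the 5 genes of the IKK complex and related kinases, 4 were called lower at day 5, against 69.8% of all features. The median log2 change of the 5 was -1.10, against -0.99 over all features. After rescaling 0 were called lower and 1 higher (24.7% and 29.4% of all features). That gene was TBK1, another IKK-related kinase, named after its values were seen, with an uncalled deposited change of 0.21 and a rescaled rise of 1.46. Of 15 tested genes of canonical upstream signalling 13 were called lower at day 5, with a median of -1.01, against 69.8% of all features. After rescaling 2 rose and 1 fell, and the median was 0.11. On the deposited scale the list was led by IRAK1, a kinase of Toll-like receptor signalling, whose change of -2.50 was -1.23 after rescaling and called on both scales.

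Other IκB proteins were called lower in 3 of 4 cases at day 5, against 69.8% of all features, most of all NFKBIB (IκBβ) by -1.20, whose rescaled change of -0.08 was not called. Among the 3 was NFKBID, which passed the filter only with the untreated libraries, where it is high. That built a difference into its being tested. After rescaling 0 of the 4 were called lower and 1 higher, NFKBIZ by 1.46, an atypical nuclear IκB named after its values were seen. Among 13 genes of ubiquitin editing and restraint, 1 was called higher and 8 lower at day 5 (7.73% and 69.8% of all features), and 6 and 1 after rescaling (29.4% and 24.7%). TAX1BP1, an adaptor of A20, rose by 0.70, and NKIRAS2, which encodes a Ras-like protein that restrains IκB degradation, fell by -1.83, and both calls stood after rescaling at 1.98 and -0.72. Of 15 tested genes in the list of other NF-κB targets, 4 were called higher and 7 lower at day 5, and 8 and 2 after rescaling, against the same shares of all features. CXCL10, a chemokine, rose by 1.36, from TPM of 0 to 0.0635 in untreated libraries to 1.08 to 2.46 at day 5, and passed the filter only through day 5. A difference was thus built into its being tested, and its call is among the 4 higher. SOD2, the mitochondrial superoxide dismutase, was called lower on both scales, by -2.27 and -1.01.

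Across all 69 pathway genes outside the 10, 57 were tested. They were called higher and lower 7 and 7 times at day 2, 7 and 37 at day 3, then 8 and 37 at day 5, and 17 and 2, 19 and 8, and 21 and 5 after rescaling. The shares of all features were 8.03% and 23.2%, 7.59% and 61.5%, and 7.73% and 69.8%, and after rescaling 15.4% and 9.44%, 25.4% and 22.6%, and 29.4% and 24.7%. Their median change at day 5 was -0.87 on the deposited scale, against -0.51 for the 10 genes. Among the 57, IL2RG, CD74, PLEK, CD40 and CXCL10 passed the filter only through treated libraries. NFKBID passed it only with the untreated libraries, where it is high. A difference was built into the testing of these genes, and they are kept in the counts and the median above. At day 5, IL2RG, CD74, PLEK and CXCL10 were among the 8 called higher, and NFKBID was among the 37 called lower.

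**Figure D4:**
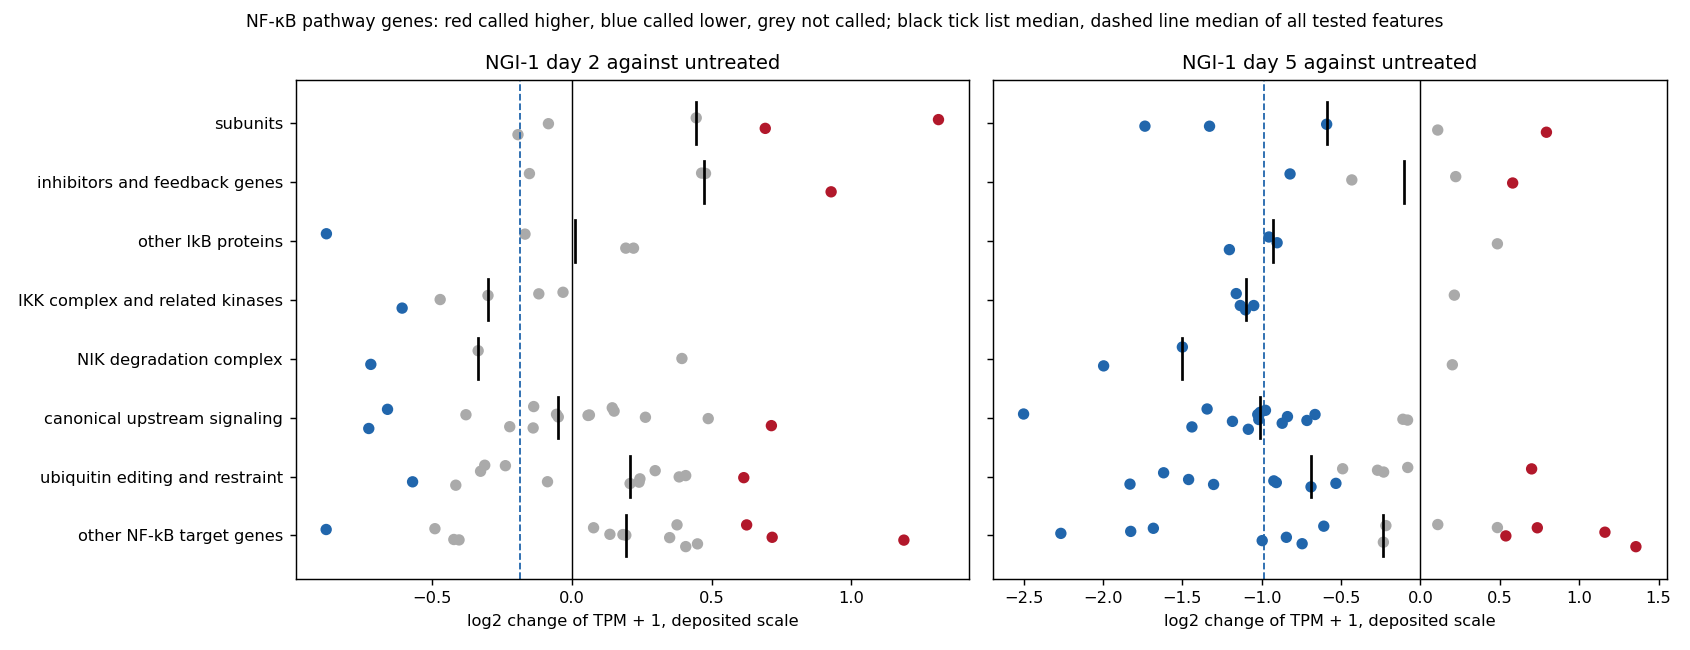
Log2 change of TPM + 1 on the deposited scale (x axis) at day 2 and day 5 against untreated cells for each tested gene of 8 lists (y axis). Red points were called higher, blue lower and grey not called, black ticks are list medians, and the dashed line is the median of all tested features. At day 5 the medians of the IKK list, -1.10, and of upstream signalling, -1.01, lay by the dashed line at -0.99, and that of the inhibitors and feedback genes lay at -0.11.

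A signature of 11 NF-κB target genes used in myeloma holds 6 of the 10 genes. Of its 10 tested genes, 3 (IL2RG, CD74 and PLEK) passed the filter only through treated libraries, where they are high, and are left out of the counts. Of the other 7, 3 were called higher and 0 lower at day 2, 2 and 2 at day 3, then 2 and 3 at day 5, against 8.03% and 23.2%, 7.59% and 61.5%, and 7.73% and 69.8% of all features. After rescaling 5, 4 and 4 of the 7 were called higher, against 15.4%, 25.4% and 29.4%, and 0 lower. Outside the 10 genes, IL2RG, the common cytokine receptor chain, rose by 1.47, 1.52 and 1.68, from a TPM of 0.211 to 0.992 in untreated libraries to 2.87 to 5.88 at day 5. CD74, the invariant chain, rose by 0.999, 0.64 and 0.57, and PLEK, which encodes pleckstrin, was called at day 3 and day 5 with 0.77 and 1.90. These 3 passed the filter only through treated libraries, so a difference was built into their being tested. MALT1, the paracaspase of antigen receptor signalling, fell by -0.68 and -0.98 at day 3 and day 5, and its rescaled changes of 0.18 and 0.24 were not called. WNT10A had a TPM of at most 0.626 and was not tested.

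Over the 12 libraries and 5433 features with a mean TPM of 10 or more, the pattern of NFKB2 was most like those of PDLIM1P4, TXNDC5 and SELPLG on the deposited scale (Pearson r = 0.987, 0.980 and 0.978), and of PDLIM1P4, SELPLG and MX1 after rescaling (r = 0.974, 0.973 and 0.966). That of NFKBIA was most like RAB31, TSC22D3 and SLC6A9 (r = 0.978, 0.927 and 0.925), and after rescaling RAB31, CYTH2 and HEXA (r = 0.993, 0.988 and 0.986). These correlations are a description: the libraries form 4 groups that share a scale, and no p is given.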

How the data were processed

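Total RNA-seq was analysed in 12 MM1S libraries, 3 in each of 4 groups set by the day label. The authors deposited 1 table of log2(TPM + 1) values per gene symbol. The labels name FastQC, Trimmomatic, STAR, Salmon and hg38 in the submitters' processing notes, with no version, role or order, and strand use in counting is not given in the sources used here. TPM was recovered from the log2 values. The labels state over 60 M read pairs with 200 ng of RNA per library, but the table holds no counts, so counting error is unknown and the spread of 3 libraries is the only measure of precision.

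Features reaching a TPM of 1 or more in 3 or more libraries, 11939 in number, were tested with limma 3.58.1 in R 4.3.3, with 1 mean per group and a mean-variance trend, two-sided, and Benjamini-Hochberg adjustment within each contrast. The procedure was run on simulated data with independent noise and few changed features. That run cannot test calls made where most features moved, as they did here. Ratios were compared by exact permutation. For TPM without ribosomal protein and mitochondrial features, 86 and 37 features were removed. Promoter windows and positions came from RefSeq (GRCh38.p14), and gene overlaps from GENCODE on GRCh38. Python 3.11.15 and matplotlib 3.10.9 were used for tables and figures.

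The genes and lists were chosen with earlier results of these data known. Named were the 10 genes, the partners of MAP3K14 and of the IκB proteins, the other signature genes, the largest called rise and fall at day 5 in each remaining list, and the 3 features most like NFKB2 and NFKBIA. Tried instead were: the filter dropped or raised to a TPM of 5, 0.1 as pseudocount, rescaling, removal of ribosomal protein and mitochondrial features, pairwise fits, no trend, a log2 threshold of 1, and leaving out each library, and, added after seeing the data, leaving out both libraries that stood apart. The paper's proteomic and other measurements were not analysed here.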

Additional observations from a re-analysis of the deposited data

Results flagged for a closer look

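The changes against untreated cells differed between days for 9 of the 10 genes, NFKBIE excepted, on the deposited scale, tested by the contrast of the days in limma. Such calls were common: of all tested features, 55.5% were called lower and 3.22% higher from day 2 to day 3. These shares were 13.1% and 0.67% from day 3 to day 5, and 69.8% and 4.35% from day 2 to day 5. From day 2 to day 3 the difference was -1.01 for NFKB1, -0.76 for NFKB2, -1.17 for RELA, -0.52 for REL, -0.68 for NFKBIA, -1.02 for TNFAIP3 and -0.75 for MAP3K14. From day 3 to day 5 it was -0.52 for NFKB2 and -0.56 for BIRC3. From day 2 to day 5 it was -1.25 for NFKB1, -1.28 for NFKB2, -1.54 for RELA, -0.52 for RELB, -1.30 for TNFAIP3 and -0.77 for MAP3K14. The calls of REL (day 2 to day 3), BIRC3 and NFKB2 (day 3 to day 5) and RELB (day 2 to day 5) lay just past 0.5 and were lost without any 1 of 3, 3, 4 and 2 particular libraries. The median of all tested features moved by -0.57, -0.25 and -0.83 over the same intervals. RELA stood out in that its day 2 to day 5 difference was also called after rescaling, at -0.62 (adjusted p = 0.000558, limma), where RELB turned to 0.42.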

How the results depend on the processing

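Rescaling mattered most. It gave reversed changes at day 2 of 0.18 for NFKB1, 0.093 for RELA, 0.022 for NFKBIE and 0.084 for MAP3K14; at day 3 of 0.78 for NFKB2, 0.63 for REL, 0.046 for NFKBIE and 0.28 for TNFAIP3; at day 5 of 0.61 for NFKB2, 0.30 for NFKBIE and 0.33 for TNFAIP3. Between days it gave 0.085 for RELB and 0.023 for NFKBIE (day 3 against day 2), 0.060 for NFKB1, 0.34 for RELB, 0.055 for TNFAIP3 and 0.13 for MAP3K14 (day 5 against day 3), and 0.42 for RELB, 0.49 for REL, 0.62 for NFKBIA, 0.28 for NFKBIE and 0.48 for BIRC3 (day 5 against day 2). It moved the counts called higher and lower to 6 higher at day 2, 5 and 0 at day 3, 5 and 1 at day 5, 1 and 2 for day 3 against day 2, 2 and 0 for day 5 against day 3, and 1 and 1 for day 5 against day 2. TPM without ribosomal protein and mitochondrial features reversed NFKB1 to 0.053 and MAP3K14 to 0.011 at day 2, NFKB2 to 0.39 and REL to 0.33 at day 3, NFKB2 to 0.076 at day 5, RELB to 0.21 and MAP3K14 to 0.10 for day 5 against day 3, and RELB to 0.016, REL to 0.14, NFKBIA to 0.21, NFKBIE to 0.033 and BIRC3 to 0.18 for day 5 against day 2. It gave counts of 6 higher at day 2, 4 higher and 3 lower at day 5, 1 and 4 for day 3 against day 2, and 1 and 0 for day 5 against day 3. Which scale is nearer to RNA per cell was not tested.

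A log2 threshold of 1 left 1 call at day 2, 0 higher and 2 lower at day 3, 0 and 2 at day 5, 3 lower for day 3 against day 2 and 0 for day 5 against day 3. A TPM minimum of 5 left 1 higher at day 3 and 1 lower for day 5 against day 3, since fewer genes were tested. No filter and pairwise fits each left 0 lower for day 5 against day 3. Without both libraries that stood apart, 1 gene was called higher at day 5, REL changed by -0.055 there and MAP3K14 by 0.0055 for day 5 against day 3. Over left-out libraries the count higher at day 5 ran from 1 to 2, that lower for day 5 against day 3 from 0 to 3, and BIRC3 to BIRC2 from 0.30 to 0.46. Changes near 0 crossed it: NFKB2 and REL at day 3 ran from -0.14 to 0.026 and -0.22 to 0.033, REL at day 5 from -0.055 to 0.23, and for day 5 against day 3 RELB from -0.050 to 0.013, NFKBIE from -0.012 to 0.056 and MAP3K14 from -0.066 to 0.029. Of 720 such values 686 kept direction and side of the threshold, as did all 60 with no trend and 56 of 60 with the pseudocount of 0.1. No paired analysis was possible because the titles number the libraries in 1 run and groups share no replicate number in the labels: the replicate numbers used here follow accession order and only name libraries.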
